A study of Mus musculus with 10 samples.

Results

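The genes described here encode the proteins of the cytosolic ribosome, measured in inguinal white adipose tissue of mice with and without an adipose deletion of Tcf7l2. Members were the protein-coding genes whose symbol is Rpl or Rps followed by a digit, together with Rplp0, Rplp1, Rplp2 and Rpsa. Ribosomal S6 kinases and pseudogenes were left out. The rule took 86 of the 52636 gene identifiers in the count table, 52 of the large subunit, 33 of the small subunit and Rps19bp1, a nucleolar binding partner of the Rps19 protein that fits the spelling but is no subunit. Of the 86, 77 encode the core set of ribosomal proteins (46 large, 31 small) and 8 are further gene copies (Rpl3l, Rpl7l1, Rpl10l, Rpl22l1, Rpl36al, Rpl39l, Rps27l and Rps27rt). Members and their subunits were both taken from the annotated symbols, so the annotation is no separate check of the label. Ribosomal protein genes that are spelled otherwise, among them Fau and Rack1, are given separately.

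A ribosome joins a small subunit, which reads the messenger RNA, to a large subunit, which forms the peptide bond. Each subunit holds its proteins in nearly equal number, and cells control many of these genes together, both at transcription and at translation. Many of the transcripts begin with a run of pyrimidines, the terminal oligopyrimidine tract, through which mTOR signalling and the Larp1 protein regulate their translation. Tcf7l2 is a transcription factor of the Wnt pathway that binds DNA with beta-catenin.

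Total RNA was sequenced from 5 control and 5 knockout libraries of C57BL/6 mice aged 6 months. Controls carried the floxed TCF7L2F/F alleles without Cre and are labelled wild type, and knockouts were TCF7L2F/F; Adp-Cre, labelled an adipose knockout. The labels do not name the promoter behind Adp-Cre, and cells in which it is silent keep the gene. All mice ate a 65% high-fat diet, for 16 weeks by the diet label, 12 weeks by the sample description and 4 months by the treatment protocol. Whether each library came from its own mouse is not spelled out in the labels. Should mice be shared, the spread behind each p-value would be partly technical. The libraries are called control 1 to 5 and knockout 1 to 5. Controls precede knockouts throughout the label order, so genotype cannot be told apart from any handling that followed that order.

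Total counts ran from 14032866 to 17782073 per library. Levels are in CPM (counts relative to the library total, scaled by TMM factors), and a gene is called changed at a Benjamini-Hochberg adjusted p below 0.05 in the quasi-likelihood test of edgeR over all 15927 genes tested. Tcf7l2 itself stood at 10.7 ± 0.909 CPM in controls and 5.83 ± 0.311 CPM in knockouts (SD, n = 5 each). Its log2 fold change was -0.87 (adjusted p = 6.1e-04 in edgeR). Every knockout was below every control (exact permutation test over all ways to split the libraries, two-sided p = 0.0079, the smallest it can give). Of the 13 adipocyte markers examined, all were present in every library, with Adipoq between 2297 and 3388 CPM. Of these, Lep was called higher (7.69% of the markers, near the 5.84% of all tested genes called higher). Slc2a4, Cfd and Retn were called lower, as were 7.05% of all tested genes, and 9 markers did not pass. The controls held 689 to 996 CPM of 11 summed B cell markers and the knockouts 879 to 1792 CPM. Most of that sum was Ighm (670 to 1262 CPM), which did not pass the test. The other 10 B cell markers summed to 16.9 to 39.5 CPM in controls, 529.9 CPM in knockout 1 and 26.9 to 69.4 CPM in knockouts 2 to 5. For 11 T cell markers the controls held 17.5 to 31.4 CPM and the knockouts 22.4 to 150 CPM. Knockout 1 was the highest library in each sum. Control 5 was the highest control in the T cell sum and in the B cell sum with Ighm, and the lowest without Ighm.

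Transcripts of the cytosolic ribosome were more abundant in the knockout fat. Of the 84 members tested, 34 were called higher and 0 lower in edgeR, against 5.84% of all tested genes called higher and 7.05% called lower. The other 50 did not pass the test. At an unadjusted p below 0.05 the count of lower members was also 0, and DESeq2 and limma-voom called 0 lower. The called share was 40.5% of the members tested, their fold changes lay between 0.23 and 0.41 on the log2 scale (17.5% to 32.9% higher), and their adjusted p between 0.0166 and 0.0489 (edgeR). A further 30 members had an adjusted p between 0.05 and 0.1. With no adjustment, 71 members had a p below 0.05, against 31.0% of all tested genes. The median fold change of the 84 was 0.27 on the log2 scale (21% higher), and that of all tested genes was 0.00. The estimate was positive for 83 members and negative for Rpl29 only. In 20 members (23.8%) all 5 knockouts lay above all 5 controls, which held for 4.55% of all tested genes. Bulk tissue cannot tell apart more transcript in each cell from more cells rich in these transcripts.

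The members made up 1.85%, 1.92%, 1.97%, 2.02% and 2.07% of the counts in controls 1 to 5, and 2.77%, 2.22%, 2.07%, 2.28% and 2.26% in knockouts 1 to 5. As scaled values, their sum was 18290, 18739, 19718, 19146 and 21593 CPM in the controls and 27107, 22605, 20782, 22731 and 24218 CPM in the knockouts. The ranges overlapped, because control 5 lay above knockout 3. Knockout 1 was the highest of the 10 libraries for 64 members and knockout 5 for the other 20. Control 5 was the highest control for 59 members, control 1 the lowest control for 48 and knockout 3 the lowest knockout for 61. The libraries therefore differed in the level of the whole set within each genotype as well as between them.

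The number of members called depended on single libraries. Leaving out control 1 or control 2 left 1 member called in each case, leaving out control 4 left 6, and leaving out knockout 5 left 5. It was 20 without control 3 and 17 without knockout 2. Over all genes tested, the share called higher also fell in these fits, to 1.43% without control 1 and 1.41% without control 2. In each of those fits the members called were 1.19% of the members tested, below the share of all genes. Without control 4 it was 7.14% of members against 2.41% of all genes, and without knockout 5 it was 5.95% against 2.41%. The shares were 23.8% against 4.54% without control 3 and 20.2% against 2.92% without knockout 2. Leaving out control 5 raised the count of members to 55 (65.5%, against 8.57% of all genes) and leaving out knockout 3 to 46 (54.8%, against 4.37%). It was 26 without knockout 1 (31.0%, against 6.97%) and 28 without knockout 4 (33.3%, against 5.15%). Without control 5 and knockout 1 together it was 55 (65.5%, against 11.1%). The median fold change of the members stayed between 0.22 and 0.32 on the log2 scale in those 10 fits that left out a single library, and 0 members were called lower in each. Rps10 was the only member called in all 10 fits, and Rpl32 and Rpl38 were called in 8.

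**Figure D1:**
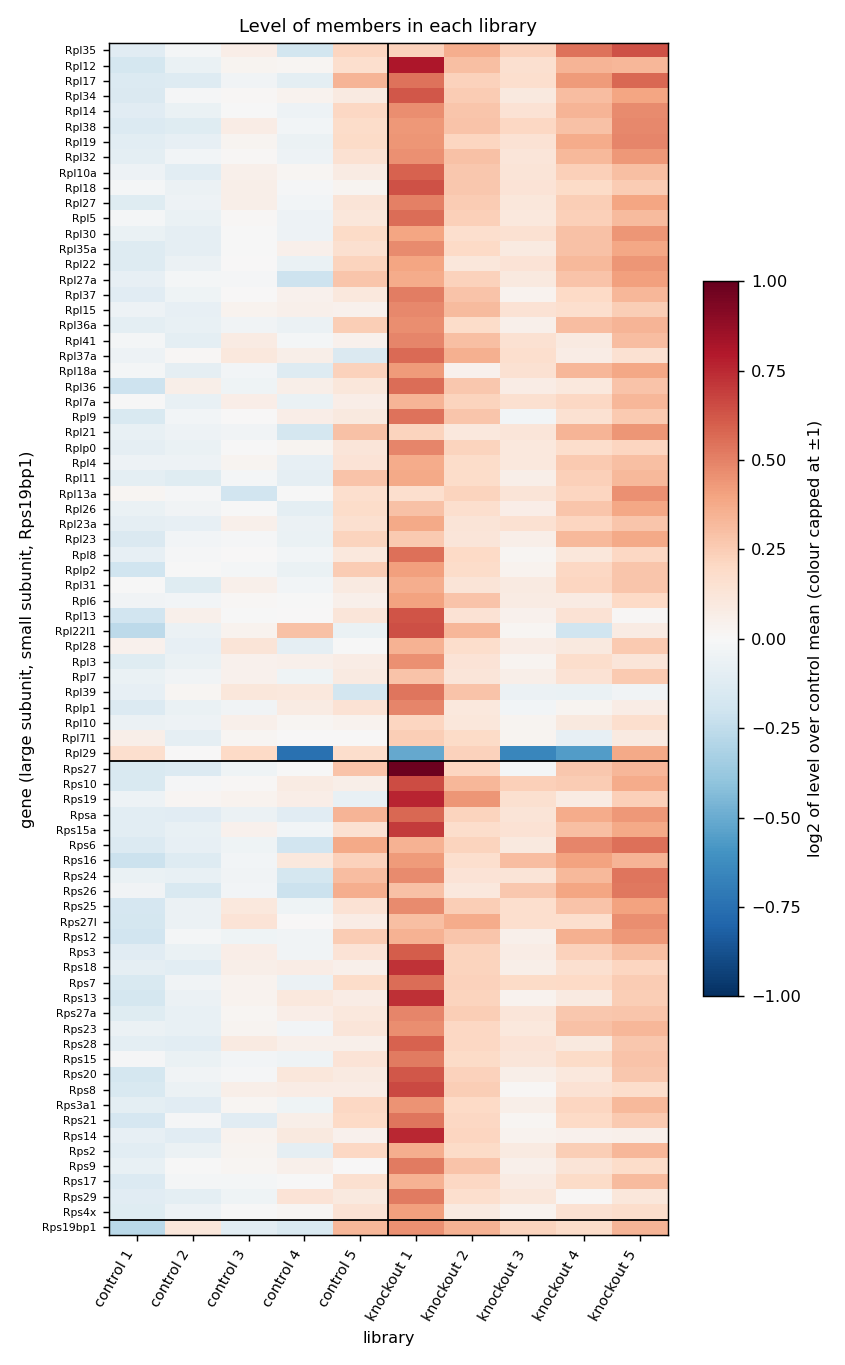
Level of 78 members (rows, among those with at least 50 counts in every library) in the 10 libraries (columns), as the log2 of CPM over the mean of the controls. Knockout columns are mostly red, deepest in knockout 1 and palest in knockout 3, control 5 is the reddest control, and Rpl29 is blue in control 4 and knockouts 1, 3 and 4.

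Each subunit held genes that rose. Of 50 large subunit genes tested, 21 rose (42.0%), with a median fold change of 0.26 on the log2 scale, and in 10 the groups did not overlap. Of 33 small subunit genes, 13 rose (39.4%), with a median of 0.29, and in 10 the groups did not overlap. Over all tested genes, 5.84% were called higher, and in 4.55% all 5 knockouts lay above all 5 controls. Neither subunit had a called fall. Within the core set the counts were 21 of 46 and 12 of 31. The subunits were compared as a description, with no test.

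Summed over its genes, the large subunit stood at 12457 ± 818 CPM in controls and 14953 ± 1549 CPM in knockouts (SD, n = 5 each), and the small subunit at 6887 ± 454 and 8348 ± 796 CPM. The ratio of the sums was steady across the controls, at 1.809, 1.815, 1.806, 1.804 and 1.809. In knockouts 1 to 5 it was 1.824, 1.790, 1.788, 1.777 and 1.774. Knockout 1 thus had the highest ratio of the 10 libraries, and knockouts 2 to 5 had ratios of sums below each control. The mean was 1.81 ± 0.00425 in controls and 1.79 ± 0.0199 in knockouts, a difference of 1.02% of the control mean. The mean log2 level of the core genes, which weights each gene equally, gave another order of libraries. Large minus small was -0.273, -0.286, -0.286, -0.361 and -0.315 in controls 1 to 5 and -0.434, -0.309, -0.331, -0.315 and -0.302 in knockouts 1 to 5. By this measure knockout 1 was the lowest library and knockouts 2 to 5 lay within the range of the controls.

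**Figure D2:**
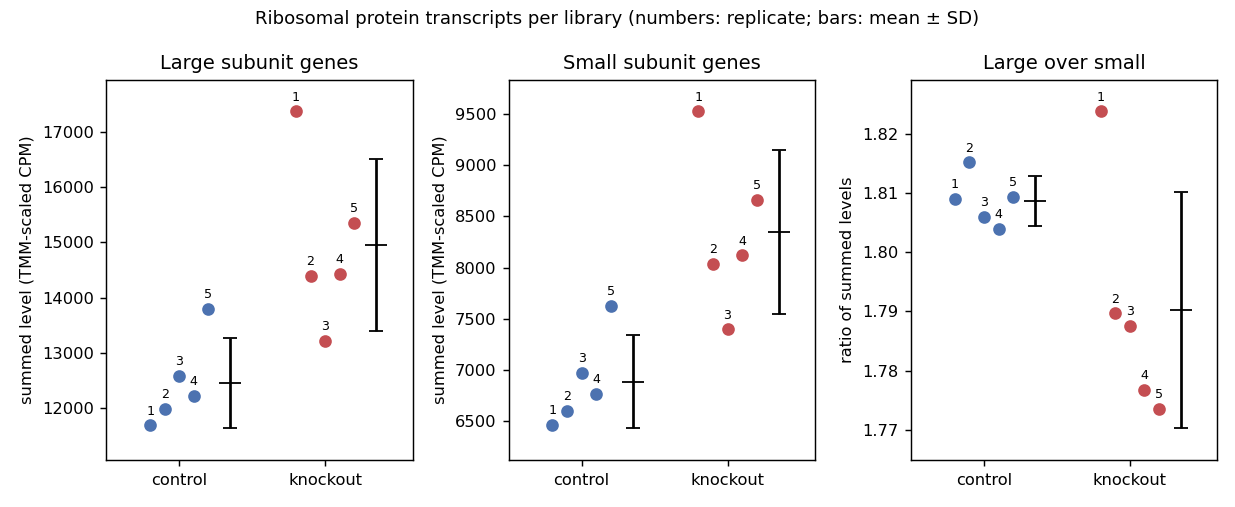
Summed level in CPM of the large subunit genes (left) and the small subunit genes (middle), and their ratio (right), in each library, with the mean and SD of each group beside the points. Control 5 lies above knockout 3 in both sums, and in the ratio knockouts 2 to 5 lie below the 5 controls while knockout 1 lies above them.

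Among the large subunit genes that rose, Rpl35 had the largest fold change. It stood at 130, 139, 147, 124 and 164 CPM in controls 1 to 5 and at 165, 182, 165, 205 and 219 CPM in knockouts 1 to 5. The groups did not overlap, but control 5 and the lowest knockouts nearly met. The fold change was 0.41 on the log2 scale (SE 0.097, adjusted p = 0.0217 in edgeR). Rpl35 (ENSMUSG00000062997, chr2:39001580-39005624, GRCm38) encodes a protein near the exit of the peptide tunnel. Other genes, Arpc5l and Wdr38, cover 68.3% of its messenger RNA, and Arpc5l was itself called higher (0.33 on the log2 scale, adjusted p = 0.0458 in edgeR), so reads of the overlap may belong to either gene.

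Rpl12 and Rpl17 followed with fold changes of 0.41 and 0.40. Rpl12 encodes a protein at the base of the stalk that recruits the elongation factors. Its levels were 252.5, 273, 291, 290 and 321 CPM in controls and 501, 353, 320, 361 and 359 CPM in knockouts, so knockout 1 stood far above the rest and knockout 3 just below control 5. Rpl17, another protein at the tunnel exit, stood at 281, 283, 302, 288 and 390 CPM in controls and 450, 362, 347, 414 and 459 CPM in knockouts. There control 5 stood apart from the other controls and above knockouts 2 and 3. Adjusted p was 0.0344 for Rpl12 and 0.0343 for Rpl17 (edgeR).

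Rpl38, a small protein of the large subunit that is required for the patterning of the vertebrate skeleton, was separated more evenly. It stood at 132, 134, 153, 143 and 165 CPM in controls and at 197, 177, 168, 178 and 203 CPM in knockouts. The groups did not overlap (0.34 on the log2 scale, SE 0.076, adjusted p = 0.0180 in edgeR). Rpl34 stood at 112, 123, 125, 127 and 132 CPM against 191, 148, 133, 153 and 163 CPM, again without overlap (0.35, adjusted p = 0.0254). In Rpl14 and Rpl19, 4 of the 5 knockouts lay above the highest control, control 5, and knockout 3 lay below it. Rpl14 rose from 277 ± 25.2 to 351 ± 33.1 CPM and Rpl19 from 278 ± 24.3 to 351 ± 34.9 CPM (SD, n = 5).

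Several large subunit proteins have a known role outside the mature ribosome. Rpl5 and Rpl11 form a particle with the 5S ribosomal RNA that can bind the p53 regulator Mdm2. Rpl5 rose from 369 ± 18.4 to 455 ± 55.2 CPM (adjusted p = 0.0338 in edgeR). Rpl11 had 260 ± 32.1 and 308 ± 26.4 CPM and did not pass (adjusted p = 0.0840). Rpl22, which binds RNA and whose loss impairs T cell development, rose from 145 ± 14.4 to 177 ± 17.9 CPM (adjusted p = 0.0432). The stalk proteins did not pass the test: Rplp0 had a log2 fold change of 0.25 (adjusted p = 0.0529), Rplp2 of 0.23 (0.107) and Rplp1 of 0.15 (0.320). Rplp0 stood at 494, 501, 523, 534 and 569 CPM in controls and at 734, 613, 565, 590 and 609 CPM in knockouts. Only knockout 3 lay below the highest control. Rplp1 stood at 259, 272, 278, 301 and 314 CPM against 400, 306, 280, 291 and 300 CPM, so that knockout 1 alone lay above control 5. Rpl10, which joins the large subunit late, had a log2 fold change of 0.12 (adjusted p = 0.169).

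Among the small subunit genes, Rps10 had the lowest adjusted p of all members. Rps10 (ENSMUSG00000052146, chr17:27630418-27636669, GRCm38) encodes a protein at the head of the small subunit. It stood at 126, 139, 141, 148 and 146 CPM in controls and at 220, 176, 165, 167 and 180 CPM in knockouts. The lowest knockout exceeded the highest control, and knockout 1 stood well above the other knockouts. The fold change was 0.38 on the log2 scale (SE 0.082, adjusted p = 0.0166 in edgeR). Of its messenger RNA, 63.6% is also covered by Gm15420 and by a readthrough gene.

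Rpsa, the small subunit protein that was first described as a laminin receptor, stood at 515, 512, 532, 511 and 701 CPM in controls and at 827, 648, 605, 715 and 749 CPM in knockouts. Control 5 lay far above the other controls and above knockouts 2 and 3. It passed with an adjusted p of 0.0473 (0.36 on the log2 scale). Rps15a stood at 172, 176, 191, 182 and 207 CPM against 301, 209, 205, 229 and 242 CPM, with knockout 3 just below control 5 (0.35, adjusted p = 0.0376 in edgeR). Rps25, Rps7 and Rps27a were called higher with no overlap between the groups. Rps27a, whose precursor carries ubiquitin, rose from 211 ± 13.7 to 257 ± 24.1 CPM.

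Rps6, the substrate of the S6 kinases, did not pass the test, at 265 ± 45.4 and 338 ± 43.2 CPM (0.35 on the log2 scale, adjusted p = 0.0624 in edgeR). Control 5 overlapped the knockouts: controls stood at 241, 250, 257, 232 and 344 CPM and knockouts at 337, 310, 284, 371 and 389 CPM. Rps27 had a fold change of 0.40 with an adjusted p of 0.109. Knockout 1, at 338 CPM, stood far above knockouts 2 to 5, at 169 to 217 CPM, and the controls reached 209 CPM. Without knockout 1 the adjusted p of Rps27 was 0.157 (edgeR). In Rps19, Rps28 and Rps9 all 5 knockouts lay above all 5 controls, yet their adjusted p was between 0.0515 and 0.0669.

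**Figure D3:**
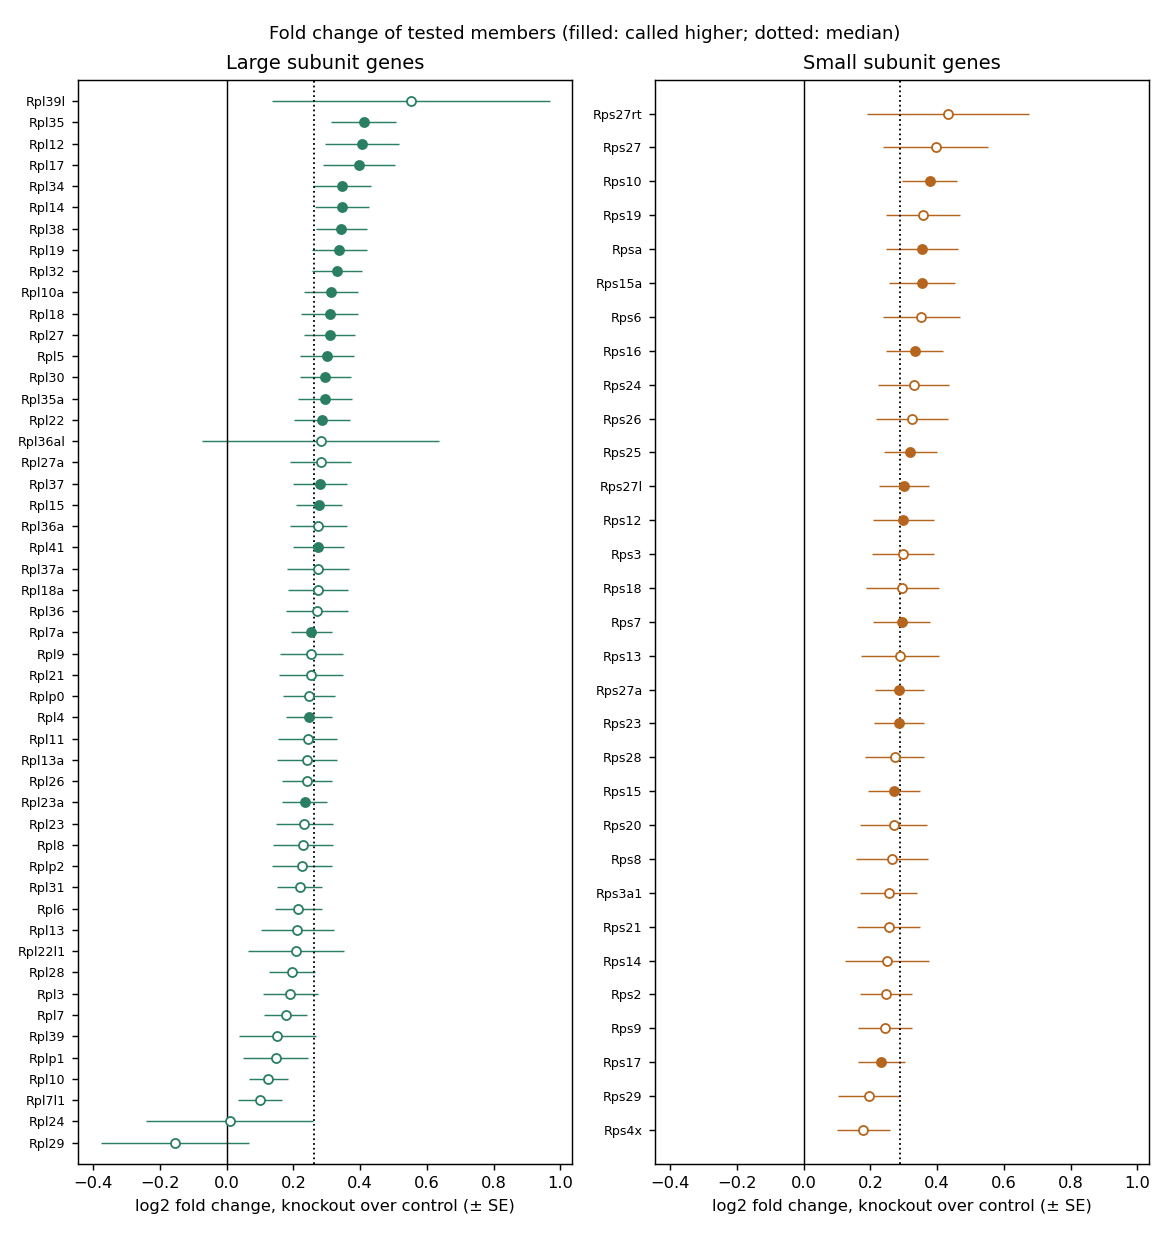
Log2 fold change, knockout over control, of 50 large and 31 small subunit genes with its standard error, filled where the gene was called higher. Most estimates lie near the dotted medians of 0.26 and 0.29, the called genes run from 0.23 to 0.41, and Rpl29 alone lies below 0.

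Rpl29 and Rpl39l varied in another way than the rest of the set. Rpl29 stood at 137, 122, 140, 72.5 and 137 CPM in controls and at 85.4, 143, 77.5, 82.6 and 158 CPM in knockouts. Its levels fell into a low set (control 4 and knockouts 1, 3 and 4, at 72.5 to 85.4 CPM) and a high set at 122 to 158 CPM, and each genotype held libraries of each. Its fold change was -0.15 on the log2 scale with an SE of 0.223 (adjusted p = 0.672 in edgeR). Knockout 1, the highest library for 64 members, was among its lowest. Rpl39l, a copy of Rpl39 known from testis, stood at 11.0, 18.0, 2.46, 12.9 and 9.85 CPM in controls and at 17.9, 17.6, 16.6, 4.98 and 22.3 CPM in knockouts. Control 3 and knockout 4 were low, of which only knockout 4 was in the low set of Rpl29. No 50-base stretch of the main coding transcript of Rpl39l occurs in the transcripts of another gene, while 66.8% of those of Rpl29 do.

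The further gene copies differed widely in level. Rps27l, known as a target of p53, was the only called member among the 6 copies tested. It stood at 66.6, 72.1, 82.5, 75.6 and 79.3 CPM in controls and at 92.6, 97.1, 84.6, 84.7 and 104 CPM in knockouts, without overlap (0.30 on the log2 scale, SE 0.075, adjusted p = 0.0254 in edgeR). Its level was 53.9% of that of Rps27 per kilobase of exon and 29.2% per kilobase of main coding transcript. Rpl22l1 reached 23.6% of Rpl22 per kilobase of exon and 59.8% per kilobase of main coding transcript. It had at most 29.4 CPM in controls and 37.5 CPM in knockouts, and did not pass (adjusted p = 0.347). Rpl7l1 was at 10.1% of Rpl7 per kilobase of exon and 5.89% per kilobase of main coding transcript, and did not pass (0.10, adjusted p = 0.320).

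Rpl3l and Rpl10l did not pass the filter on low counts. Rpl3l, the copy of Rpl3 used in striated muscle, stood at 0.0595, 0.0637, 0.123, 0.203 and 0.821 CPM in controls and at 0.919, 0.182, 0.594, 0.199 and 0.137 CPM in knockouts, where 3 counts correspond to 0.172 to 0.205 CPM. The highest libraries were knockout 1, control 5 and knockout 3. The same libraries had the highest sums of muscle markers, at 786, 569 and 624 CPM, against 25.3 to 128 CPM in the other 7. Rpl10l, a copy used in the male germ line, was listed at 0 in 9 libraries and at 0.0608 CPM in knockout 2. The counts of Rps27rt and Rpl36al were too low to show a difference of the size seen in the set, at 0.430 to 0.821 CPM and 0.332 to 1.32 CPM.

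Levels between genes were compared per kilobase of exon, as the mean of the 10 libraries. The median of the core set was 126 CPM per kilobase, 122 for the large and 137 for the small subunit. The highest were Rplp1 at 601, Rps3a1 at 528 and Rplp0 at 346 CPM per kilobase. Among the 84 members tested, the lowest were Rpl36al at 0.506, Rpl24 at 0.719 and Rps27rt at 1.72. Divided by the length of the main coding transcript in place of all annotated exons, the median of the core set was 318 CPM per kilobase and the highest were Rps12 at 829, Rpl41 at 613 and Rplp1 at 601, so the order depends on the length used. Rpl24 is a core protein, and its low value stands beside an overlap: Gm28037 covers 71.5% of its messenger RNA, and that gene had 0 counts in each of the 10 libraries. The same held for Rpl13a (from 12.2 CPM in control 3 up to 19.2 CPM in knockout 5, 59.3% covered by Gm45713) and Rpl36al (63.1% covered by Gm49383). An overlap did not always go with a low value. Of the 8 members with more than 50% of the messenger RNA covered, Rpl35, Rps10, Rpl30, Rpl23a and Rps25 averaged 96.7 to 329 CPM. No fold change of Rpl24 can be read from 0.473 to 0.861 CPM (0.01 on the log2 scale, adjusted p = 0.985 in edgeR).

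Sequence shared with other genes limits what a count of these genes means. Of the 86 members, 82 share at least 1 stretch of 50 bases with the transcripts of another gene, and 44 share more than 50% of their stretches. The stretches came from the main coding transcript of each member only. A match on either strand counted, and genes that overlap a member at its own locus were included. These are therefore not counts of near-identical copies. The sources used here do not give how reads with several matches were counted. The counts of ribosomal protein pseudogenes, which are no members, came to 0.358% to 0.419% of the members' total in a library. Among the 42 members that share less than the median, 18 were called higher (42.9%), with a median fold change of 0.28 on the log2 scale. Among the other 42 it was 16 (38.1%), with 0.27. Of all tested genes, 5.84% were called higher.

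The start of the transcript was examined because a pyrimidine run there is the known signature of these genes. RefSeq promoters (GRCm38.p6) were matched for 66 of the 86 members. The search asked for at least 6 bases of C or T only that cover the annotated start and hold CTTT or TTCC, on the transcribed strand only, since the tract is a feature of the RNA. These letter strings may overlap each other. Such a run covered the start in 17 of 66 members (25.8%; 9 of 40 large and 8 of 25 small subunit genes) and in 4.45% of the 27025 genes with a promoter. Within 25 bases of the start, a run lay in 60.6% of members and 30.1% of all genes. Of the 17 members with a run at the start 8 were called higher (47.1%), with a median fold change of 0.33 on the log2 scale. Of the 47 tested members without it 19 were (40.4%), with 0.28. Of all tested genes, 5.84% were called higher. The difference between members with and without a run was not tested. A match is a description of these letters and not a measured start or a regulatory site.

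The windows of the 8 called members with such a run are shown because they let the tract be compared between genes that rose. Each holds the 30 bases before the annotated start and the 20 from it on, 5′ to 3′. The pyrimidine run that covers the start is in capitals. Other runs stay in lower case, such as the one before the start in the Rps15a window.
Rpl35, chr2:39005112-39005161, minus strand: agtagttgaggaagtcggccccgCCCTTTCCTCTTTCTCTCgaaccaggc
Rpl34, chr3:130730318-130730367, minus strand: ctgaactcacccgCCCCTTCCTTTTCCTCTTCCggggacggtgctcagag
Rpl38, chr11:114668550-114668599, plus strand: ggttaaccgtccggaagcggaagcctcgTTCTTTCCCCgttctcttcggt
Rpl15, chr14:18270967-18271016, minus strand: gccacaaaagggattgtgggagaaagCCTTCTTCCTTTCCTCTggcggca
Rpl35a, chr16:33056452-33056501, plus strand: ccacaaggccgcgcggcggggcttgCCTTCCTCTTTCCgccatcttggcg
Rpl7a, chr2:26910777-26910826, plus strand: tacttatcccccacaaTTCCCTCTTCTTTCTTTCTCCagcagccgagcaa
Rps10, chr17:27635225-27635274, minus strand: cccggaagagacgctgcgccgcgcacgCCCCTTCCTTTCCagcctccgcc
Rps15a, chr7:118116128-118116177, minus strand: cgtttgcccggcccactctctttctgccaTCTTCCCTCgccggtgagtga
The runs in capitals are between 9 bases (Rps15a) and 21 bases (Rpl7a) long.

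Genes of the wider translation machinery were examined in the same fit, and their counts are to be read against the 5.84% of all tested genes called higher. Of 3 tested genes of ribosomal proteins spelled otherwise, 2 rose (66.7%) and 0 fell, and the remaining gene had a log2 fold change of -0.0126. Fau rose from 160 ± 7.05 to 195 ± 25.5 CPM (0.29 on the log2 scale, adjusted p = 0.0369 in edgeR) and Rack1 from 374 ± 21.7 to 460 ± 68.3 CPM (0.30, adjusted p = 0.0489), each without overlap. Of 77 mitochondrial ribosomal protein genes tested, 10 rose (13.0%) and 0 fell, with a median of 0.17 on the log2 scale. Of 16 genes of elongation factors and other transcripts with a known pyrimidine tract, 4 rose (25%) and 0 fell (median 0.19). Among them Eef1b2, an exchange factor of elongation factor 1, went from 153 ± 9.78 to 192 ± 16.5 CPM (adjusted p = 0.0162). Eif5a and Eef1g had log2 fold changes of 0.23 and 0.25 (adjusted p = 0.0396 and 0.0475).

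Of 34 initiation factor genes 6 rose (17.6%) and 0 fell (median 0.13), with the lowest p for Eif1ax, Eif4a2 and Eif4a1 (0.28, 0.26 and 0.21 on the log2 scale). Of 42 ribosome biogenesis genes 5 rose (11.9%) and 0 fell (median 0.10). These included Nhp2, a protein of the box H/ACA particles, at 0.38, Nop16 at 0.33 and Pes1 at 0.19. Snhg6 was the only one of 11 tested host genes of small nucleolar RNAs outside the members to rise (9.09%; 0.38 on the log2 scale, adjusted p = 0.0151 in edgeR). The members themselves host 58 annotated small nucleolar RNA genes within 30 genes, of which 4 were tested and 1 rose. Of 30 genes of mTOR and Myc signalling 1 rose (3.33%, below the share of all genes). It was Akt1s1 (0.28, adjusted p = 0.0234 in edgeR), which encodes an inhibitory subunit of mTOR complex 1. Myc had a log2 fold change of 0.09 (adjusted p = 0.681), Mtor of 0.05 (0.565) and Larp1 of 0.13 (0.277). The difference between any of these lists and the members was not tested. Of the 13 called genes named from the lists, 4 (Eef1b2, Nhp2, Nop16 and Snhg6) were called in all 10 fits that left out a library. Rack1 was called in 3 and Eef1g in 2, and limma-voom did not call them (adjusted p = 0.0556 and 0.0514).

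Markers of lymphocytes also differed between the groups and between libraries. So did the share of counts in genes annotated as sense-intronic or TEC (a class of transcripts awaiting experiments). Of 11 B cell markers 5 rose (45.5%) and of 11 T cell markers 6 rose (54.5%), against 5.84% of all tested genes. None of the 22 was at 0 in any library. The summed T cell markers stood at 18.9, 21.5, 19.98, 17.5 and 31.4 CPM in controls and at 150, 22.4, 39.8, 40.9 and 37.2 CPM in knockouts. Knockout 1 and control 5, the highest libraries of their groups here, were also the highest of their groups in the sum of the members. Below them the order differed: knockout 3, the lowest knockout in the members, had more T cell marker transcript than knockouts 2 and 5. With a score of the B and T cell markers as a covariate, 0 members were called (12 with an unadjusted p below 0.05 in edgeR), and the median fold change of the members was 0.13 on the log2 scale. Without knockout 1 it was 0.22, with 26 members called. Of 10 endothelial markers 7 fell, against 7.05% of all tested genes. Of 11 macrophage markers 0 changed in either direction (0 with an unadjusted p below 0.05 in edgeR).

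Genes annotated as sense-intronic or TEC held 0.263%, 0.306%, 0.201%, 0.297% and 0.158% of the counts in controls and 0.179%, 0.140%, 0.167%, 0.158% and 0.125% in knockouts. Such genes may collect reads of unspliced RNA, which was not itself measured. Control 5 lay within the range of the knockouts, and knockout 1, highest in the members, had the highest share of the knockouts. With this share as a covariate 0 members were called (13 with an unadjusted p below 0.05 in edgeR) and the median was 0.20. With the share of all non-coding genes as a covariate 0 were called (31 unadjusted), with a median of 0.24. In these fits few genes of any kind were called higher, 0.113% and 0.119% of those tested, against 2.21% with the marker score. Since these measures differ between the genotypes, their part in the result cannot be told apart from genotype.

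**Figure D4:**
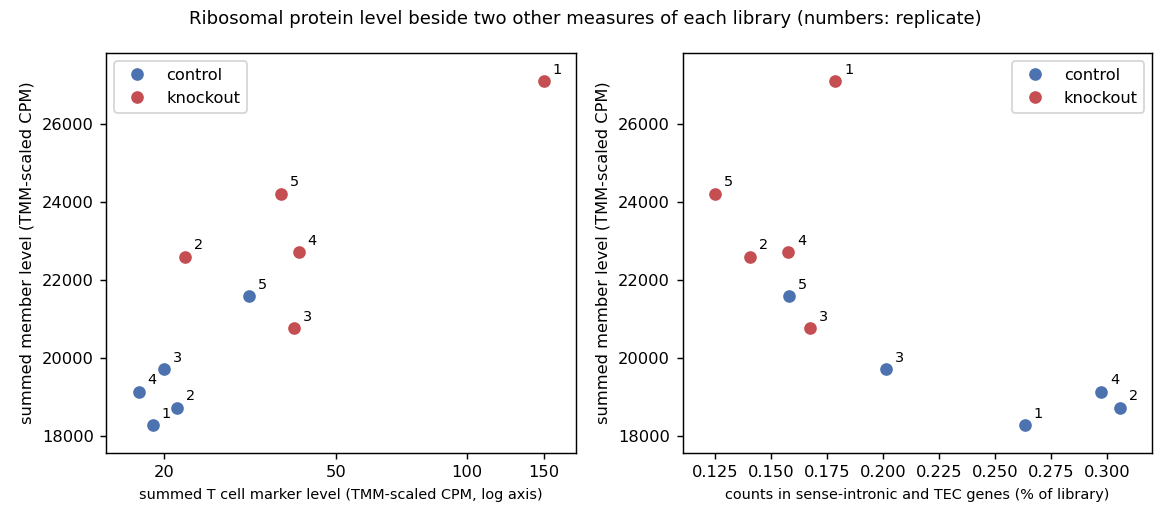
Summed level of the members in CPM against the summed T cell marker level in CPM on a log axis (left) and against the percentage of counts in sense-intronic and TEC genes (right), one point per library, numbered by replicate. Knockout 1 lies at the upper right of the left panel at 150 and 27107 CPM, and on the right control 5 lies among the knockouts.

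**Figure D5:**
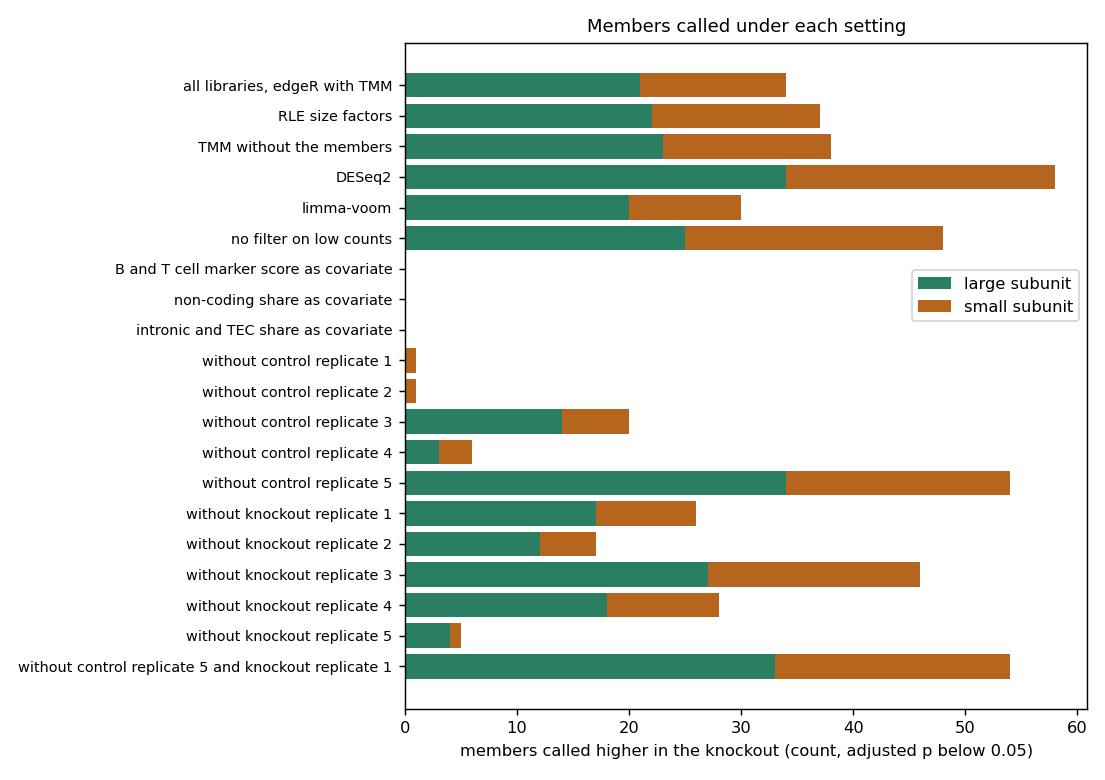
Number of large and small subunit genes called higher in the knockout under each setting of the analysis, from the fit of all libraries at the top to fits that leave out libraries at the bottom. Bars run from 0 with each covariate to 58 with DESeq2, and fits without control 1 or control 2 have 1 gene each; Rps19bp1, of neither subunit, is not drawn.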

How the data were processed

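The authors deposited whole-number counts, reads assigned to each gene with no normalization, for 10 libraries (inguinal fat, 5 control and 5 knockout). Per the submitters' processing notes, the tools were STAR 2.5.2b, featureCounts 1.5.1 and DESeq2 1.16.0 with GRCm38. Not given in the sources used here are the annotation release, the strand setting of counting and how multiply matching reads were treated. Symbols, exons and biotypes came from GENCODE M21 (52489 of 52636 identifiers matched), and promoters from RefSeq.

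Counts were filtered with filterByExpr by group, scaled by TMM and tested with the quasi-likelihood test of edgeR 4.0.16 in R 4.3.3, with no covariate and Benjamini-Hochberg adjustment over 15927 genes. The standard error is the log2 fold change over the square root of F. DESeq2 1.42.0 and limma 3.58.1 (voom) were alternatives, and the scripts were tested on simulated data. The 20 pairs of libraries of a group differed by more than sampling noise (chi-square per degree of freedom 7.28 to 29.7), so none was treated as a library deposited again, which does not show that the mice differ. A floor of 3 counts is 0.172 to 0.205 CPM and covers counting error only.

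Named genes were the called members with the largest rises (up to 10), the tested copies, the 3 highest and 3 lowest per kilobase, up to 3 called genes of smallest p from each translation list, and Tcf7l2. Rpl5, Rpl11, Rpl22, Rpl29, Rpl10, Rpl13a, Rplp2, Rps6, Rps27 and the other members named were added after their values were seen. Genes outside the members that the rule did not pick, among them Arpc5l, Myc, Mtor and Larp1, were named as well. Some genes are not reported here by name, though counts and medians include them. The members and lists were chosen with earlier results of these data known.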

Additional observations from a re-analysis of the deposited data

Results flagged for a closer look

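Within each group of 5 libraries, the gap of the highest or lowest library to its neighbour was compared with the range of the group (Dixon's 95% critical value, 0.71). It was exceeded in 14 of 84 groups. For a single group chance exceeds it in about 1 of 20. The 84 groups came from the same 10 libraries and many items vary together, so they are not independent and the shares cannot be compared directly. Of the 14, 8 were knockout 1 and 5 were control 5, each the highest library of its genotype in the members.

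Knockout 1 stood apart for Rpl12 (501 CPM), Rps10 (220 CPM), Rplp0 (734 CPM), Rplp1 (399.6 CPM), Fau (239 CPM) and Rack1 (580.2 CPM). It also stood apart in the summed B cell markers (1792 CPM) and T cell markers (150.2 CPM). Control 5 stood apart for Rpl17 (389.9 CPM), Rpsa (701 CPM), Eef1g (327 CPM), the summed T cell markers (31.4 CPM) and Rn7sk, the 7SK small nuclear RNA (18174 CPM). Control 1 was the lowest control for Akt1s1 (27.1 CPM).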

How the results depend on the processing

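No paired analysis was possible because the titles give each library its own number and the groups share none. The cause of each change below was not tested.

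The 34 members called higher (21 large, 13 small) became 58 (34 and 24) with DESeq2, and 0 (0 and 0) with the B and T cell score, the non-coding share or the intronic and TEC share as a covariate, the last chosen after seeing the data. Without control 5 and knockout 1 together, also chosen after seeing the data, they were 55 (33 and 21). Leaving out each library in turn gave 1 to 55 members, 0 to 34 large and 1 to 20 small. With no filter on low counts, 48 members and 23 small subunit genes were called. Of all genes tested, 3.27% were then called higher, against 8.24% with DESeq2 and 11.1% without control 5 and knockout 1. RLE factors gave 37 members, TMM without the members 38 and limma-voom 30, where 5.96%, 5.95% and 4.80% of all genes tested were called higher. In each fit of this paragraph 0 members were called lower. With the marker score the median log2 fold changes were 0.134 (members), 0.134 (large) and 0.119 (small), and under the other settings they moved by less than the spread between members.

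With the marker score the estimate was positive for 76 of the 84 members tested and negative for 8, against 83 and 1 without a covariate. Without control 5 and knockout 1 together it was negative for 4. Among the genes named by rule, changes of sign occurred in those with low counts or small fold changes. With the marker score Rpl22l1 had -0.0029, Rpl36al -0.292, Rplp1 -0.0577 and Rpl24 -0.118. Leaving out each library in turn gave Rpl36al -0.0301 (without knockout 1) to 0.465 and Rpl24 -0.107 to 0.128. Rpl36al had -0.0201 without control 5 and knockout 1, where Rpl24 had -0.0098. Rpl24 had -0.00698 with the non-coding share and -0.102 with the intronic and TEC share. It was also negative without control 1 (-0.00452), control 4 (-0.107), knockout 1 (-0.0453), knockout 2 (-0.0414) or knockout 4 (-0.0139).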

Other observations

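Rpph1, the RNA of ribonuclease P, which matures transfer RNA, was higher in each knockout than in each control. It was chosen after its values were seen. It stood at 4238, 4721, 5127, 4860 and 5916 CPM in controls and at 9623, 6045, 6033, 8042 and 8612 CPM in knockouts (log2 fold change 0.63, adjusted p = 0.0178 in edgeR). Rn7sk, another short RNA of RNA polymerase III, stood at 12787 ± 3019 and 17080 ± 2965 CPM (SD, n = 5) and did not pass (0.42, adjusted p = 0.0929 in edgeR).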
